A study of Mus musculus with 20 samples.

Results

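Trp53 encodes p53, the transcription factor that cells stabilize after DNA damage and other stress, and the genes it switches on stop the cell cycle, start apoptosis, repair DNA or limit p53 itself. Mdm2 is both a target and the ubiquitin ligase that marks p53 for the proteasome, so the pair form a feedback loop. Ataxin-3, the deubiquitinase mutated in spinocerebellar ataxia type 3, is known to bind p53 and to counter its breakdown, and in postmitotic neurons p53 is best known for its part in cell death after injury. The genes described here are Trp53, Mdm2 and 8 canonical targets, Cdkn1a, Bax, Bbc3, Ccng1, Phlda3, Zmat3, Trp53inp1 and Eda2r. They were picked from the known pathway, with earlier results of these data at hand, and make up 10 of the 29200 genes counted.

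The libraries come from whole cerebellum of 20 male C57BL6/N mice, 5 in each of 4 groups. WT/WT mice carry wild-type Atxn3 on both alleles, which the labels name ataxin-2, and 304Q/304Q mice are homozygous for an expanded repeat, interrupted by CAA codons, that zinc-finger nucleases placed in the endogenous murine Atxn3 gene. Both genotypes were taken at 2 and at 12 months. The expanded allele is under the endogenous promoter throughout life, the line goes back to a single founder, and no other strain or treatment separates the groups. The comparisons ask how p53 and its targets differ between the genotypes at each age and between the ages in each genotype.

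Reads counted on genes came to 11385380 in the shallowest library and 27636687 in the deepest, 304Q/304Q replicate 1 of 2 months. Levels are given as TMM-scaled CPM, and a gene was tested when its mean over the libraries reached 50 counts. That limit was met by 12153 genes, among them 9 of the 10 members, while Eda2r had a mean of 4.15 counts and was examined apart. The markers of cerebellum were abundant. The 6 Purkinje cell markers summed to 6311 ± 370 CPM (SD, n = 5) and the 7 granule cell markers to 7195 ± 174 CPM in WT/WT mice of 2 months, and no gene of any marker list was at 0 in all libraries. Choroid plexus genes were uneven. Their sum lay between 391 and 2077 CPM in 6 libraries, which are WT/WT replicates 1, 2 and 5 and 304Q/304Q replicates 1 and 3 of 12 months and 304Q/304Q replicate 3 of 2 months, and between 2.41 and 20.7 CPM in the other 14.

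Per kilobase of exon, the members spanned a wide range of levels. Ccng1 was highest with a mean of 17.3 ± 2.24 RPKM (SD over the 20 mice), followed by Bax with 14.3 ± 1.59, and the ranges of these neighbours overlapped. Zmat3 with 9.27 ± 0.908 RPKM and Mdm2 with 8.99 ± 0.749 did not differ beyond their spread. Trp53 itself lay below them at 6.43 ± 0.704 RPKM, above 46.2% of the tested genes. Phlda3 followed at 5.05 ± 1.12 RPKM, then Cdkn1a at 3.90 ± 1.15 and Bbc3 at 3.73 ± 0.827, again with overlapping ranges. Trp53inp1 at 2.27 ± 0.666 RPKM and Eda2r at 0.0464 ± 0.0510 RPKM were the lowest. The pro-apoptotic receptor gene Eda2r was thus nearly silent in this tissue while the transcripts of the cell cycle regulator Ccng1 and of Bax were common.

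Cdkn1a was the member that separated the genotypes at 12 months. There, 1 of the 9 tested members passed an adjusted p of at most 0.05 in the quasi-likelihood test of edgeR, adjusted over all tested genes, and 12.5% of all genes did. The same gene also met a log2 fold change of 0.5 in size, as did 3.09% of all genes. For 2 of the 9 members, Cdkn1a and Phlda3, every 304Q/304Q mouse lay below every WT/WT mouse, against 8.94% of all genes whose groups did not overlap in either direction. An unadjusted p under 0.05 was reached by 3 members and by 27.3% of all genes.

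At 2 months no member passed between the genotypes by edgeR or by DESeq2, where 0.0494% of all genes passed by edgeR. No member reached an unadjusted p under 0.05 either, against 5.55% of all genes, and the groups overlapped for all 9, where they did not for 1.05% of genes. With age in WT/WT mice the edgeR count was again 0 of 9, and 0 by DESeq2, beside 11.5% of all genes. Members with an unadjusted p under 0.05 numbered 0 there, against 27.5% of genes, and 0 had groups apart, against 6.57%. With age in 304Q/304Q mice, Cdkn1a passed as 1 of 9, beside 7.26% of all genes, and it also met the fold threshold that 2.28% of genes met. Of the members, 2 reached an unadjusted p under 0.05 there, against 19.1% of genes, and 2, Cdkn1a and Zmat3, had groups that did not overlap, against 7.8%. For the interaction of genotype and age, no member passed by edgeR or DESeq2, beside 1.95% of genes by edgeR, and 1 reached an unadjusted p under 0.05, against 15.9%.

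**Figure D1:**
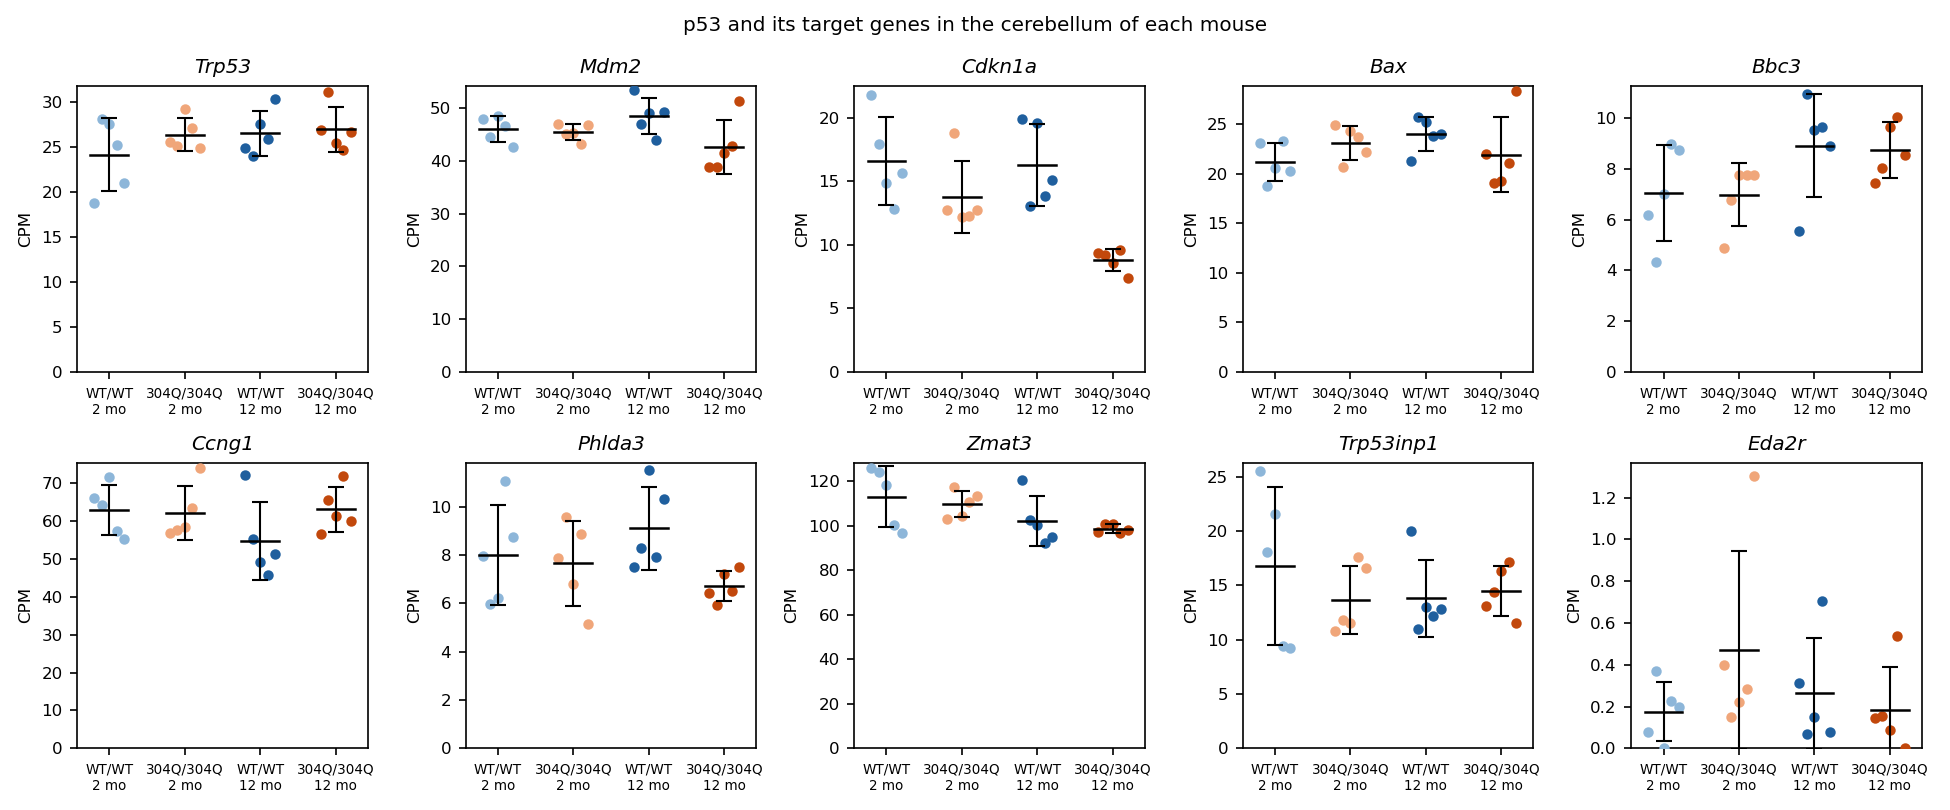
CPM of the 10 members in each mouse, with a panel per gene and a column per group (points are mice, the bar is the mean and the whiskers are ± 1 SD, n = 5). In the Cdkn1a panel the 304Q/304Q mice of 12 months sit between 7.42 and 9.59 CPM, below all other mice.

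Trp53, on chr11:69580359-69591873 (plus strand, GRCm38), showed no difference between groups. In WT/WT mice of 2 months it stood at 18.8, 28.2, 27.5, 25.3 and 21.0 CPM in replicates 1 to 5. The 304Q/304Q mice of that age had 25.6, 25.1, 29.2, 27.1 and 24.9 CPM. These groups overlapped, since the WT/WT mice were the more spread. At 12 months the WT/WT mice had 24.9, 24.0, 27.5, 25.9 and 30.3 CPM and the 304Q/304Q mice 26.9, 31.2, 25.5, 24.7 and 26.6 CPM, again interleaved. The log2 fold change of 304Q/304Q against WT/WT was 0.13 ± 0.101 (SE) at 2 months (adjusted p = 0.933) and 0.03 ± 0.101 at 12 months (adjusted p = 0.895). The 95% interval of the latter ran from -0.18 to 0.24. With age, the log2 fold change of Trp53 was 0.13 in WT/WT mice (adjusted p = 0.407) and 0.03 in 304Q/304Q mice (adjusted p = 0.904). Its transcript does not report on the protein, which is regulated mainly by its breakdown. Atxn3, the gene that carries the knock-in, had 19.6 ± 2.96 CPM in WT/WT mice and 13.5 ± 2.17 in 304Q/304Q mice of 2 months (log2 fold change -0.54, adjusted p = 0.0916), and 15.6 ± 1.12 and 14.3 ± 1.24 CPM at 12 months (adjusted p = 0.510).

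Mdm2, the ubiquitin ligase for p53, lies on chr10:117688875-117710758 (minus strand). Its level was among the steadiest of the members, and at 2 months the mice of both genotypes lay between 42.6 and 48.5 CPM. At 12 months the WT/WT mice had 53.4, 47.0, 49.0, 44.0 and 49.3 CPM in replicates 1 to 5, and the 304Q/304Q mice 38.8, 38.8, 41.5, 42.9 and 51.4 CPM. Of the 304Q/304Q mice, 4 lay below all WT/WT mice and replicate 5 lay above 4 of them. The log2 fold change was -0.19 ± 0.0733 (SE) and did not pass (adjusted p = 0.1). Without 304Q/304Q replicate 5 of 12 months it was -0.27 with an adjusted p of 0.0098, and this was the only fit of 30 that called it. Without the 6 libraries rich in choroid plexus transcripts, a setting chosen after the data were seen, it was -0.07 (adjusted p = 0.734). With age, Mdm2 had log2 fold changes of 0.08 in WT/WT (adjusted p = 0.524) and -0.09 in 304Q/304Q mice (adjusted p = 0.564).

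Cdkn1a, on chr17:29090976-29100727 (plus strand), encodes p21, the inhibitor of cyclin-dependent kinases through which p53 halts the cell cycle. In WT/WT mice of 2 months it stood at 21.8, 17.9, 14.9, 12.8 and 15.6 CPM, a mean of 16.6 ± 3.43 (SD, n = 5). The 304Q/304Q mice of 2 months had 12.8, 18.8, 12.2, 12.3 and 12.7 CPM, a mean of 13.7 ± 2.84. Replicate 2 stood alone here, as the other 304Q/304Q mice all lay just below the lowest WT/WT mouse. At 12 months the WT/WT mice had 19.9, 13.04, 19.6, 13.8 and 15.1 CPM (mean 16.3 ± 3.23), and the 304Q/304Q mice had 9.34, 9.20, 8.53, 9.59 and 7.42 CPM (mean 8.82 ± 0.875). The 304Q/304Q mice of 12 months were below every mouse of the other groups and close to each other, and in WT/WT mice the levels of the ages overlapped throughout.

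At 12 months Cdkn1a was lower in the 304Q/304Q mice by edgeR's test, with a log2 fold change of -0.88 ± 0.157 (SE; 95% interval -1.21 to -0.56), a fold of 0.542 (adjusted p = 0.00042). By p-value it ranked 265 among the tested genes. With age in 304Q/304Q mice it fell by 0.64 on the log2 scale (SE 0.157, adjusted p = 0.0117), while the log2 fold change in WT/WT mice was -0.03 ± 0.150 (adjusted p = 0.928). Without 304Q/304Q replicate 2 of 2 months the fall in 304Q/304Q mice was -0.50 and passed narrowly (adjusted p = 0.0496). At 2 months the genotypes differed by a log2 fold change of -0.27 ± 0.151, which did not pass (adjusted p = 0.886) and ran from -0.41 to -0.13 over the 30 other fits. The interaction was -0.61 ± 0.218 with an adjusted p of 0.167, so the genotype difference was not shown to depend on age, and it was called only in DESeq2 with 3 surrogate variables (adjusted p = 0.0432). Without the 6 libraries rich in choroid plexus transcripts, a setting chosen after the data were seen, the genotype difference at 12 months was -0.94 (adjusted p = 0.0246), and the fall with age in 304Q/304Q mice was -0.69 and no longer passed (adjusted p = 0.0678). In bulk tissue, fewer cells of a type that express Cdkn1a and less of its RNA per cell cannot be told apart. An annotated transcript on the opposite strand, AC167363.2, shares 273 exonic bases with Cdkn1a and is absent from the count table, and the sources used here do not state whether the counting used the strand.

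Several marker lists moved in the comparisons in which Cdkn1a was called, and their part in its difference was not tested. Of 10 tested glucocorticoid-responsive genes, 8 were lower in 304Q/304Q mice of 12 months, beside 7.3% of all tested genes. The median log2 fold change there was -0.80 over the list beside -0.00 over all genes. The summed level of the 11 listed genes, of which the metallothionein gene Mt1 was the most abundant, was 814, 621, 915, 618 and 786 CPM in the WT/WT mice of 12 months and 425, 383, 429, 407 and 479 CPM in the 304Q/304Q mice. At 2 months the sums were 823, 683, 641, 477 and 553 CPM in WT/WT and 560, 502, 548, 459 and 546 CPM in 304Q/304Q mice. None of the 10 tested genes was called between the genotypes at that age. All 10 lay below 0, with a median log2 fold change of -0.355 beside -0.002 over all genes.

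Markers of several cell types were also lower in 304Q/304Q mice of 12 months, where 7.3% of all tested genes were called lower and 5.23% higher. Of the 8 markers of myelinating oligodendrocytes, 4 were lower, and their sum was 5605 ± 282 CPM in WT/WT mice and 4060 ± 588 CPM in 304Q/304Q mice, with Mbp the most abundant. Of the 6 Purkinje cell markers, 4 were lower (6038 ± 331 against 4956 ± 194 CPM, Itpr1 the most abundant), as were 2 of 6 inhibitory interneuron markers (780 ± 20.8 against 664 ± 17.8 CPM, Gad1 the most abundant). Astrocyte and Bergmann glia markers were lower in 2 of 7 (3318 ± 106 against 3113 ± 82.6 CPM, Slc1a3 the most abundant), and endothelial markers in 1 of 6 (225 ± 10.8 against 208 ± 9.16 CPM, Flt1 the most abundant). Blood markers were lower in 4 of 5, with sums of 197 ± 49.1 against 104 ± 5.83 CPM and Hbb-bs the most abundant. Of 8 microglia markers, 1 was higher (218 ± 14.8 against 238 ± 22.1 CPM, Ctss the most abundant). Immediate early genes gave 1 of 8 higher and 1 lower, with a median of -0.84, 6 of the 8 below 0 and sums of 507 ± 93.3 against 332 ± 177 CPM (Egr1 the most abundant). None was called among 7 granule cell, 4 oligodendrocyte precursor, 4 meningeal and 2 choroid plexus genes tested. With age in 304Q/304Q mice, where Cdkn1a fell and 4.18% of all genes were called lower and 3.08% higher, 6 of 8 myelinating oligodendrocyte, 4 of 6 Purkinje cell, 2 of 7 granule cell and 2 of 6 interneuron markers were lower, as were 2 of 10 glucocorticoid-responsive genes. Of the microglia markers 6 of 8 were higher there (median 0.65). Of the astrocyte and Bergmann glia markers 3 of 7 were lower and 1 was higher. Lower too were 1 of 4 oligodendrocyte precursor and 1 of 6 endothelial markers, and 1 of 8 immediate early genes was higher. With age in WT/WT mice, where Cdkn1a was not called and 5.42% of all genes were called lower and 6.08% higher, 6 of 8 microglia markers were higher too (median 0.62), as were 2 of 2 choroid plexus (median 5.54) and 2 of 5 blood markers (median 0.54). In the same comparison 4 of 7 granule cell, 3 of 8 myelinating oligodendrocyte and 2 of 7 astrocyte and Bergmann glia markers were lower. So were 1 of 6 interneuron and 1 of 4 oligodendrocyte precursor markers. Higher in this comparison were 1 of 6 Purkinje cell markers, 1 of 10 glucocorticoid-responsive genes and 1 of 8 immediate early genes. These age comparisons use different mice.

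Over the 20 mice, with each group's mean removed, Cdkn1a was set against the mean log2 CPM of each of the 13 marker lists. No relation passed by permutation tests within groups with Benjamini-Hochberg adjustment over the 13. The closest were Purkinje cell markers (r = 0.575, rho = 0.593, permutation p = 0.0240 and 0.0149, adjusted p = 0.173 and 0.194, r = 0.478 without the 2 mice farthest from the median of Cdkn1a) and astrocyte and Bergmann glia markers (r = 0.536, rho = 0.507, permutation p = 0.0266 and 0.0372, adjusted p = 0.173 and 0.242, r = 0.423 without those 2). For the glucocorticoid-responsive genes r was 0.432 and rho 0.421 (permutation p = 0.115 and 0.111, adjusted p = 0.299 and 0.289), and r was 0.602 without the 2 farthest mice. Within groups, Cdkn1a thus had no relation to a marker list that held after adjustment.

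The Cdkn1a promoter is shown because Cdkn1a was the member that differed and because its upstream window alone among those of the members held a pair of p53 half-sites. RefSeq promoter windows of GRCm38.p6, from 250 bases before to 50 bases after a transcript start, were found for 8 of the 10 members and numbered 11. The p53 consensus half-site, which reads the same on both strands, occurred in 5 of these windows and in 8.36% of all 32851 windows. Pairs of half-sites with a spacer of 0 to 13 bases occurred in 1 of the 11, the upstream window of Cdkn1a, and in 0.0731% of all windows. With 1 mismatch allowed outside the 4 core letters, half-sites were in 7 of the 11 windows and in 39.6% of all, and pairs in 1 of the 11 and in 1.39% of all. The members were picked as p53 and its known targets, and Bbc3 and Cdkn1a have several windows each, so these shares are a description only. The exact half-sites of Cdkn1a begin at positions -73 and -51 from its upstream start, 12 bases apart. The match with a mismatch begins at -41, directly after the latter. The window of its downstream start, chr17:29093519-29093818, held no half-site, also with 1 mismatch allowed. The window is chr17:29090729-29091028 and the sites span chr17:29090906-29090947 (plus strand), and capitals mark the 3 half-sites.
Cdkn1a: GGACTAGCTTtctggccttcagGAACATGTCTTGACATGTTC
For the other members, the windows of Trp53, Mdm2, Bax and Ccng1 each held a single exact half-site, in capitals below with 5 bases on each side. A match is a run of letters, and no binding was measured here.
Trp53, half-site at chr11:69580284-69580293 (plus strand): cggaaGGACTTGCCCttact
Mdm2, half-site at chr10:117710935-117710944 (minus strand): gatagGAACTTGCCTagcga
Bax, half-site at chr7:45467090-45467099 (minus strand): atcccAGGCAAGCTTtgaac
Ccng1, half-site at chr11:40755462-40755471 (minus strand): tgcccGGGCAAGCCTtggca

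Ccng1 (chr11:40748552-40755311, minus strand) encodes cyclin G1, a p53 target that takes part in the cell cycle response and acts back on Mdm2. At 12 months it stood at 72.3, 55.3, 49.3, 45.8 and 51.3 CPM in the WT/WT mice and at 56.7, 65.6, 61.2, 71.9 and 60.0 CPM in the 304Q/304Q mice. The 304Q/304Q mice lay above all WT/WT mice but replicate 1, which was the highest mouse of either group. With all mice the log2 fold change was 0.20 ± 0.105 (SE, adjusted p = 0.210), and without WT/WT replicate 1 of 12 months it was 0.32 with an adjusted p of 0.0163. With age in WT/WT mice the log2 fold change was -0.20 (adjusted p = 0.218) with that mouse and -0.32 (adjusted p = 0.0152) without it. Leaving out the 6 libraries rich in choroid plexus transcripts, of which it is 1, gave 0.47 between the genotypes at 12 months (adjusted p = 0.0439) and -0.41 with age in WT/WT mice (adjusted p = 0.0432). At 2 months the log2 fold change between genotypes was -0.02 (adjusted p = 0.990). Over the 30 other fits Ccng1 ran from 0.09 to 0.47 between the genotypes at 12 months and from -0.41 to 0.01 with age in WT/WT mice, and no other fit called it.

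Bax and Bbc3, members that act in apoptosis, were not called between the genotypes at either age. Bax (chr7:45461697-45466898, minus strand) encodes the protein that opens the outer mitochondrial membrane, and Bbc3 (chr7:16308393-16318205, plus strand) encodes the BH3-only protein PUMA, which sets Bax free to act. The group means of Bax lay between 21.2 ± 1.93 and 24.0 ± 1.72 CPM, and its log2 fold change between genotypes was 0.13 ± 0.0999 at 2 months (adjusted p = 0.933) and -0.13 ± 0.1004 at 12 months (adjusted p = 0.439). A single mouse stood out, 304Q/304Q replicate 5 of 12 months with 28.3 CPM, where the other 304Q/304Q mice of that age lay between 19.0 and 21.9 CPM. It is the mouse with the high Mdm2. Over the 30 other fits the log2 fold change of Bax at 12 months ran from -0.24 to -0.01, and none called it (lowest adjusted p = 0.0751). At 2 months Bbc3 had 7.06 ± 1.91 CPM in WT/WT mice and 6.995 ± 1.26 CPM in 304Q/304Q mice and 8.93 ± 2.02 and 8.75 ± 1.09 CPM at 12 months. Its log2 fold changes with age were alike, 0.34 ± 0.191 in WT/WT (adjusted p = 0.251) and 0.33 ± 0.190 in 304Q/304Q mice (adjusted p = 0.364), and neither passed. For Bbc3 between the genotypes at 12 months the 95% interval ran from -0.42 to 0.36. Bax shares 192 exonic bases with Gm45808 on the same strand, which is absent from the count table.

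Phlda3 (chr1:135766119-135769136, plus strand) encodes a protein that holds back Akt signalling. At 12 months it stood at 7.52, 8.30, 11.5, 7.90 and 10.3 CPM in WT/WT and at 6.45, 5.92, 7.21, 6.52 and 7.49 CPM in 304Q/304Q mice. The highest 304Q/304Q mouse was just under the lowest WT/WT mouse, so the groups did not overlap, but the log2 fold change of -0.44 ± 0.180 (SE, 95% interval -0.81 to -0.06) did not pass (adjusted p = 0.116). It was not called with any single library left out. At 2 months it was -0.07 (adjusted p = 0.978), with groups that overlapped.

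Zmat3 (chr3:32334792-32366014, minus strand), which encodes an RNA-binding zinc finger protein, had the most counts of all members and a small spread. At 12 months the 304Q/304Q mice lay between 96.7 and 101 CPM and the WT/WT mice between 92.4 and 121 CPM (log2 fold change -0.05 ± 0.0744, adjusted p = 0.701). All 304Q/304Q mice of 12 months lay below those of 2 months, whose range was 103 to 117 CPM, with a log2 fold change of -0.15 ± 0.0741 (adjusted p = 0.257). The change with age in WT/WT mice was about as large, -0.15 ± 0.0741 (adjusted p = 0.203), and with WT/WT replicate 1 of 12 months left out it was -0.21 (adjusted p = 0.0327). Over the 30 other fits the latter ran from -0.23 to -0.04, and no other called it. In 304Q/304Q mice it passed only in DESeq2 with 3 surrogate variables (-0.16, adjusted p = 0.0468).

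Trp53inp1 (chr4:11156431-11174379, plus strand) encodes a stress protein of autophagy and p53-driven death, and its level varied widely between mice. In WT/WT mice of 2 months it ran from 9.26 CPM in replicate 5 to 25.5 CPM in replicate 1, a coefficient of variation of 43.3%. The other groups ranged from 10.8 to 17.6 CPM (304Q/304Q, 2 months), 10.95 to 19.98 CPM (WT/WT, 12 months) and 11.5 to 17.2 CPM (304Q/304Q, 12 months). No group stood apart. Between the genotypes the log2 fold change was -0.29 ± 0.230 at 2 months (adjusted p = 0.933) and 0.07 ± 0.234 at 12 months (adjusted p = 0.873). Its direction was not stable, as the other fits ran from -0.45 to 0.07 at 2 months, from -0.17 to 0.24 at 12 months and from -0.45 to 0.29 with age in WT/WT mice.

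Eda2r (chrX:97333840-97377216, minus strand) encodes a death-domain receptor of the tumour necrosis factor family. Its counts were 0 to 5 in the WT/WT and 2 to 21 in the 304Q/304Q mice of 2 months, and 1 to 10 and 0 to 7 at 12 months. The 21 counts, or 1.30 CPM, belong to 304Q/304Q replicate 5 of 2 months, and the next mouse of its group had 0.397 CPM. In 2-sided exact permutation tests of log2 CPM, of which the smallest possible p with 5 mice against 5 is 0.00794, the genotypes differed by 0.83 at 2 months (exact p = 0.151) and by -0.30 at 12 months (exact p = 0.603). The ages differed by 0.28 in WT/WT (exact p = 0.595) and by -0.85 in 304Q/304Q mice (exact p = 0.167), and adjusted over these 4 tests p was 0.333 or higher. No difference in Eda2r was detected, and whether depth or the spread between mice limited this was not tested.

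**Figure D2:**
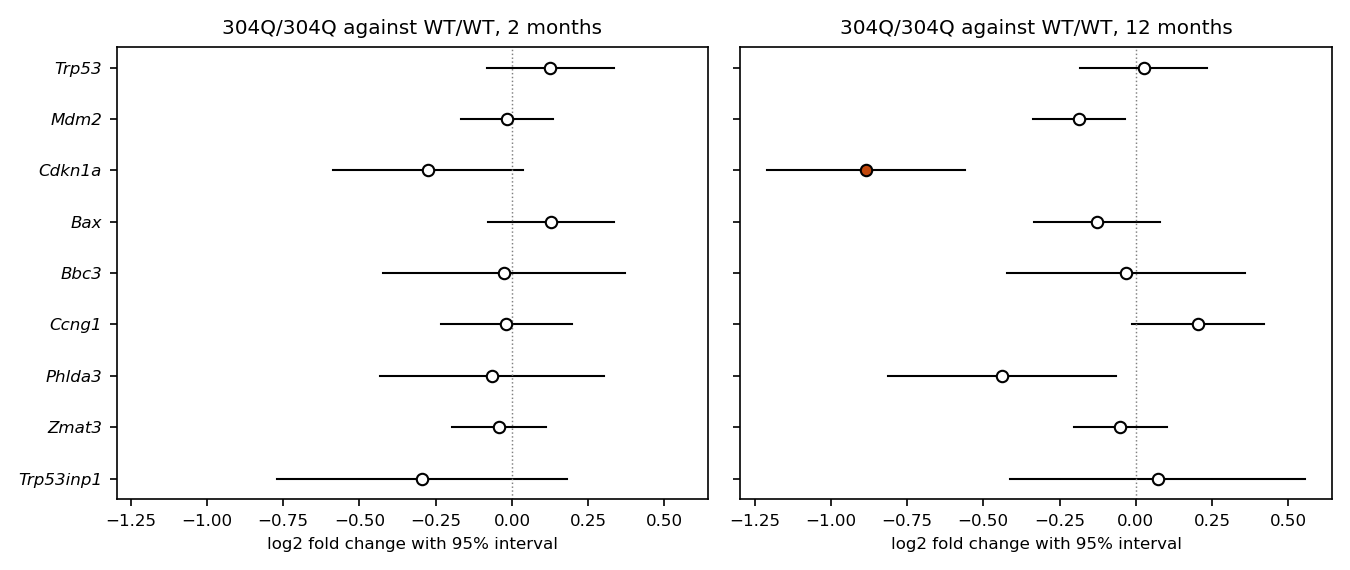
Log2 fold change of 304Q/304Q against WT/WT mice for the 9 tested members at 2 months (left) and 12 months (right), with 95% intervals from edgeR's quasi-likelihood fit (5 mice per group). Filled points passed an adjusted p of at most 0.05, which was Cdkn1a at 12 months.

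The members did not move as a block. At 12 months 6 of the 9 tested members had a log2 fold change below 0 and 3 above, with a median of -0.05 beside -0.00 over all tested genes, and at 2 months 7 lay below and 2 above, with a median of -0.03. These comparisons use different mice. With age, 5 of 9 lay above 0 in WT/WT mice (median 0.08) and 4 of 9 in 304Q/304Q mice (median -0.08). Each age comparison shares a group of mice with each genotype comparison.

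Between mice of the same group, some members went together. After removal of the group means, Ccng1 and Trp53inp1 had r = 0.733 and rho = 0.762 over the 20 mice (permutation p = 0.00052 and 0.00081, adjusted over 36 pairs 0.0187 and 0.0292), and r = 0.703 without the 2 mice farthest from the median of Ccng1. Ccng1 and Zmat3 had r = 0.719 and rho = 0.726 (permutation p = 0.00336 and 0.00247), which passed by rank (adjusted p = 0.0445) but not by r (adjusted p = 0.0605), and r = 0.617 without the 2 farthest mice. Zmat3 and Trp53inp1 had r = 0.795 and rho = 0.723 (permutation p = 0.00513 and 0.00606), which did not pass (adjusted p = 0.0616 and 0.0727), and r = 0.705 without the 2 farthest. Once 3 surrogate variables were removed from the values, r was -0.504, 0.0303 and 0.0504 for these pairs, and why was not tested. No relation of Trp53 to a target was detected, with r between -0.273 and -0.0814 (adjusted p of 0.489 or higher). Without the surrogate variables its r lay between -0.4535 (Bbc3) and 0.0314 (Ccng1), which was not tested. For Mdm2 and Cdkn1a no relation was detected either, with r = 0.0281 and rho = 0.0241 (permutation p = 0.898 and 0.926, adjusted p = 0.924 and 0.975). Their r was -0.278 once the surrogate variables were removed, also not tested.

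By pattern over all 20 libraries, group differences included, the genes most like Cdkn1a among 12152 others were Gm14033 (r = 0.906), Rasd2 (r = 0.878) and Clstn2 (r = 0.873), and 283 genes had an r above 0.7 with it. For Mdm2 they were Rbm12b1 (r = 0.881), Dok3 (r = 0.839) and P4ha1 (r = 0.813), with 55 genes above 0.7. For Trp53 they were Lipa (r = 0.774), Bcas1 and Smarcd3 (r = 0.7 for each). These are the highest of many values and are a description of these libraries. No member of the p53 group was among them.

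Other genes of the pathway that differed between the genotypes at 12 months lay on both sides. In that comparison 7.3% of all tested genes were called lower and 5.23% higher. Of 21 tested p53 regulators, 3 were lower in 304Q/304Q mice and none higher. Trp73, which encodes the p53 relative p73, had the largest log2 fold change of the 3, and it was low in 304Q/304Q mice of 12 months, at 3.26, 3.20, 4.31, 4.68 and 3.04 CPM, against 7.68, 10.7, 9.25, 8.54 and 9.77 CPM in WT/WT mice. At 2 months the WT/WT mice had 3.91 to 6.88 CPM and the 304Q/304Q mice 3.29 to 6.52 CPM. The WT/WT mice of 12 months thus stood above every other mouse, and the other groups overlapped. The log2 fold change was -1.32 ± 0.193 between genotypes at 12 months (adjusted p = 3.94e-05) and 0.83 ± 0.186 with age in WT/WT mice (adjusted p = 0.00623), and the interaction passed (-1.14 ± 0.272, adjusted p = 0.0266). The interaction no longer passed in 7 of the 20 fits with a library left out, those without WT/WT replicate 2, 304Q/304Q replicates 3 or 4 of 2 months, and WT/WT replicates 2 or 5 or 304Q/304Q replicates 1 or 2 of 12 months (highest adjusted p = 0.0604). It was also lost without the 6 libraries rich in choroid plexus transcripts (adjusted p = 0.166). Its log2 fold change ran from -1.22 to -0.96 over the alternatives and from -1.26 to -0.98 over the left-out libraries. An antisense gene, Trp73os, shares 280 exonic bases with Trp73 but had a mean of 0.25 counts.

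The other regulators were Ppp1r13b, which encodes ASPP1, a protein that directs p53 to death genes, and Usp10, which encodes a deubiquitinase of p53. Ppp1r13b had 120 ± 9.65 CPM in WT/WT mice and 98.3 ± 1.95 CPM in 304Q/304Q mice of 12 months, with groups that did not overlap (log2 fold change -0.29, adjusted p = 0.00244). Usp10 had 69.6 ± 3.76 and 60.9 ± 2.96 CPM (log2 fold change -0.19, adjusted p = 0.0455), a call kept in 5 of 10 alternatives and in 10 of the 20 fits with a library left out. Ppp1r13b was also higher at 12 than at 2 months in WT/WT mice, by a log2 fold change of 0.24 (adjusted p = 0.0131), called in 8 of 10 alternatives and 19 of 20 fits with a library left out (highest adjusted p = 0.0757). For Usp10, named there after its value was seen, the log2 fold change with age was 0.19 (adjusted p = 0.0486), a call kept in only 3 of the 20 fits with a library left out and 5 of 10 alternatives. Usp10 shares 99 exonic bases with Gm20388 on the same strand, which is absent from the count table. The regulators' median log2 fold change between genotypes at 12 months was -0.01.

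Among further targets, 1 of 6 tested genes of cell cycle arrest was lower in 304Q/304Q mice of 12 months, beside 7.3% of all genes. This was Sesn1, a stress-induced inhibitor of mTORC1 signalling, with 94.9 ± 3.43 CPM in WT/WT mice and 79.8 ± 8.30 CPM in 304Q/304Q mice (log2 fold change -0.25, adjusted p = 0.00932). This was called in 7 of 10 alternatives and in all 20 fits with a library left out, and the alternatives ran from -0.25 to -0.15. With age in 304Q/304Q mice its log2 fold change was -0.22 (adjusted p = 0.0294), called in 7 of 10 alternatives and 15 of 20 fits with a library left out (highest adjusted p = 0.360). The median of the 6 arrest genes was -0.23 between the genotypes at 12 months. Of 5 tested targets of cell death none was called between the genotypes at 12 months, though 3 reached an unadjusted p under 0.05 in edgeR's test, beside 27.3% of all genes. With age in WT/WT mice Siva1, named after its value was seen, had a log2 fold change of 0.55 (adjusted p = 0.0393), called in 4 of 9 alternatives and 12 of 20 fits with a library left out. The median of the 5 genes between the genotypes at 12 months was 0.12.

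Of 15 tested targets of repair and metabolism, with a median of 0.03, 2 were called in 304Q/304Q mice of 12 months, beside 12.5% of all genes. Gls2 was lower and Rrm2b higher. Gls2 encodes the liver-type glutaminase and stood at 31.5, 28.5, 38.7, 31.0 and 36.1 CPM in WT/WT and at 20.9, 22.1, 17.4, 21.8 and 26.1 CPM in 304Q/304Q mice, without overlap (log2 fold change -0.61 ± 0.1, adjusted p = 0.000161). In WT/WT mice it was higher at 12 than at 2 months (0.45, adjusted p = 0.00569), and its interaction of -0.54 ± 0.141 passed narrowly (adjusted p = 0.0461). This interaction was called in only 6 of the 20 fits with a library left out and in 3 of 9 alternatives. The call was lost with surrogate variables, looser count filters, the replicate block and without the 6 libraries (highest adjusted p = 0.144). The interaction log2 fold change ran from -0.55 to -0.43 over the alternatives and from -0.62 to -0.47 over the left-out libraries. Rrm2b, the p53-inducible subunit of ribonucleotide reductase, went the other way, with 25.5 ± 5.19 CPM in WT/WT mice and 35.0 ± 4.56 CPM in 304Q/304Q mice (log2 fold change 0.46, adjusted p = 0.00769). It was called in 9 of 10 alternatives, which ran from 0.26 to 0.51, and not with 3 surrogate variables in edgeR (adjusted p = 0.0545). WT/WT replicate 1 of 12 months, with 33.7 CPM, lay among the 304Q/304Q mice. Gls2 shares 97 exonic bases with Spryd4 on the opposite strand (log2 fold change -0.33, adjusted p = 0.145), and Rrm2b shares 734 with the antisense gene Gm49085, so their counts are uncertain to that extent.

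Of the 10 other tested genes of the Bcl2 family, with a median of -0.07, 2 were called in 304Q/304Q mice of 12 months, beside 12.5% of all genes. Bcl2l1 was lower and Hrk higher. Bcl2l1 encodes the survival protein Bcl-xL, with 203 ± 20.6 CPM in WT/WT mice and 174 ± 6.37 CPM in 304Q/304Q mice (log2 fold change -0.23, adjusted p = 0.0294), and the call was lost in 7 of the 20 fits with a library left out. Hrk encodes a BH3-only protein of neurons that binds Bcl-xL, and it stood at 7.76, 10.2, 7.52, 9.74 and 6.64 CPM in WT/WT and at 12.5, 12.1, 13.02, 14.0 and 12.1 CPM in 304Q/304Q mice. The groups were fully apart (log2 fold change 0.60 ± 0.136, adjusted p = 0.00411), and with age in 304Q/304Q mice the log2 fold change of Hrk was 0.44 (adjusted p = 0.0473). The age call was kept in only 8 of the 20 fits with a library left out and 7 of 10 alternatives (highest adjusted p = 0.212). Its interaction did not pass (0.62 ± 0.192, adjusted p = 0.104). Bcl2l2, named after its value was seen, had a log2 fold change of -0.16 with age in WT/WT mice (adjusted p = 0.0303), called in 5 of 10 alternatives and 13 of 20 fits with a library left out. It shares 594 exonic bases with Gm20521 on the same strand, which is absent from the count table.

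None of the 3 tested cyclin-dependent kinase inhibitors beside Cdkn1a and none of the 8 tested genes of DNA damage and senescence was called in any of the 5 comparisons, by edgeR. Between the genotypes at 12 months, 0 of the former and 1 of the latter reached an unadjusted p under 0.05, beside 27.3% of all genes (12.5% were called), and the medians were 0.13 and 0.03. At 2 months no gene of the pathway lists was called between the genotypes, and 1, the kinase inhibitor gene Cdkn1c, reached an unadjusted p under 0.05, beside 0.0494% and 5.55% of all genes. The third gene by p with age in 304Q/304Q mice, the p53 target Zfp365, had a log2 fold change of 0.25 that did not pass (adjusted p = 0.0685).

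**Figure D3:**
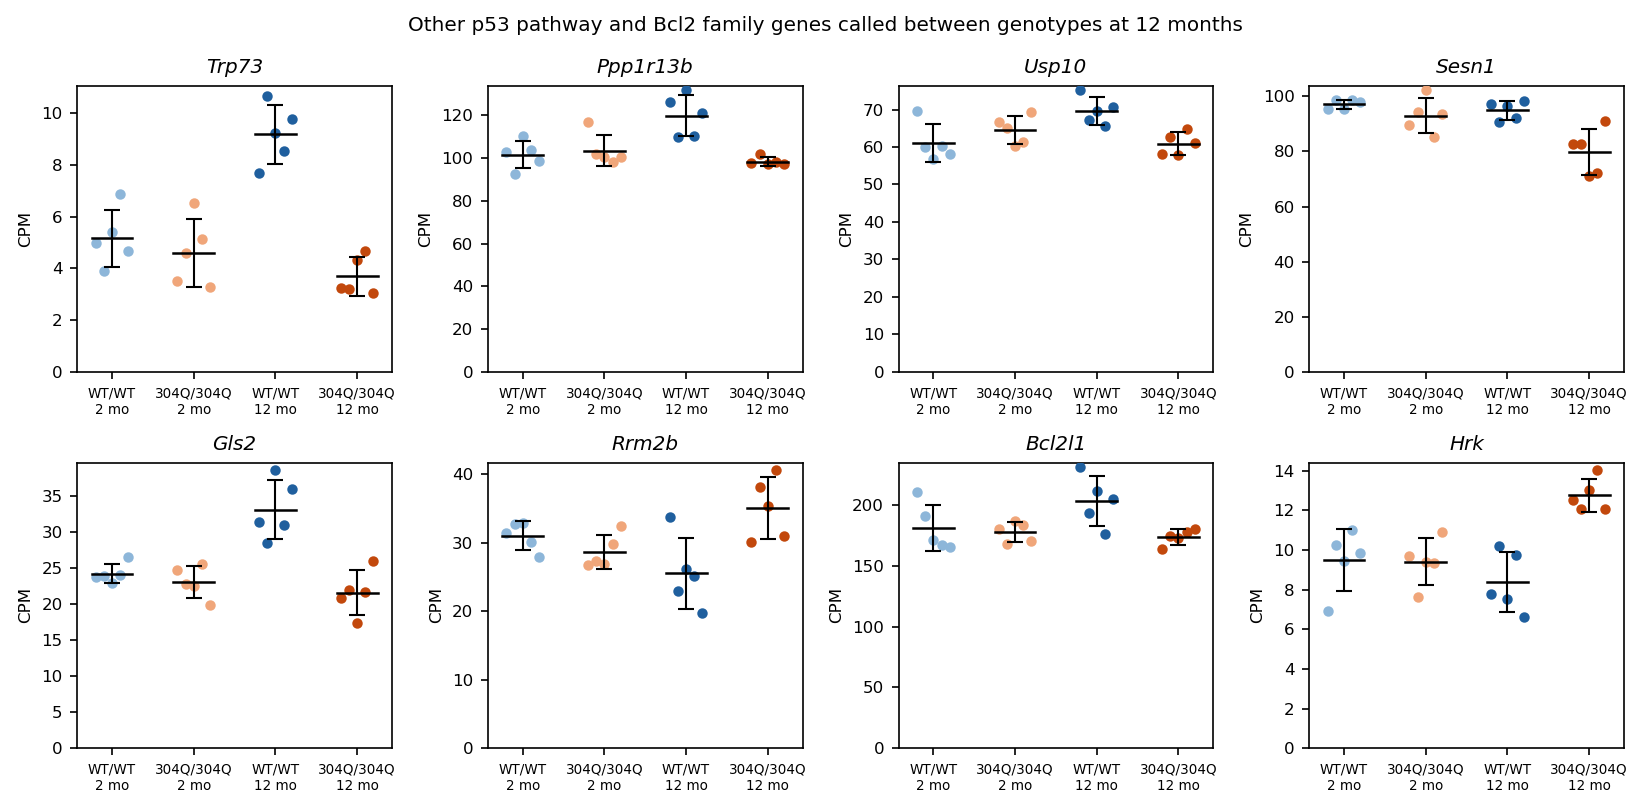
CPM of the 8 other pathway and Bcl2 family genes called between the genotypes at 12 months, in each mouse (points), with the mean and ± 1 SD (n = 5). Trp73 and Gls2 are highest in WT/WT mice of 12 months, where their lowest values are 7.68 and 28.5 CPM, and Hrk is highest in 304Q/304Q mice of that age, at 12.1 to 14.0 CPM.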

How the data were processed

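The authors used STAR on GRCm38 and Rsubread, and the raw counts they deposited cover 29200 Ensembl genes in 20 libraries, 1 per mouse. Whether strand was used in counting is not stated. The members and the gene lists were chosen with earlier results of these data known. From the deposited counts, TMM-scaled CPM and a quasi-likelihood fit with 4 group terms were computed with edgeR 4.0.16 in R 4.3.3, for the 12153 genes whose mean reached 50 counts. Contrasts were genotype within age, age within genotype, and their interaction, with Benjamini-Hochberg adjustment over these genes. A call is an adjusted p of at most 0.05. Log2 CPM used a prior count of 2. RPKM used the joined exons of GENCODE M21, in which 29150 gene IDs were found. Eda2r was tested by exact permutation of the 252 regroupings, and relations between genes by permutation within groups.

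Genes named are all members, genes of the pathway and Bcl2 family lists called in a genotype comparison or the interaction, the 3 of them with the smallest p in each age comparison, the 3 genes most like Trp53, Mdm2 and Cdkn1a, and Atxn3. Of the marker lists only the most abundant gene is named. Usp10 and Siva1 and Bcl2l2 with age, Cdkn1c and the overlapping genes were named after their values were seen. Totals of 11385380 to 27636687 counts and a biological coefficient of variation of 0.113 set the precision, with counting adding most for genes near 50 counts. Replicates differed beyond sampling noise in every group, with a chi-square over its degrees of freedom of 4.43 or more. Alternatives were DESeq2 1.42.0, its size factors, 3 surrogate variables of sva 3.50.0, other count filters, the replicate number as a block, fits limited to the contrasted groups, each library left out, a smaller prior count, and a looser motif. Leaving out libraries rich in choroid plexus transcripts was added after seeing the data.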

Additional observations from a re-analysis of the deposited data

Results flagged for a closer look

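Among the 40 sets of 5 mice (10 members in 4 groups), 3 held a mouse far from the others by Dixon's ratio, whose 95% critical value is 0.71 for 5 samples, and chance alone gives about 1 in 20. Cdkn1a was 18.8 CPM in 304Q/304Q replicate 2 of 2 months, where the other mice of the group lay between 12.2 and 12.8 CPM (ratio 0.910). Trp53inp1 was 19.98 CPM in WT/WT replicate 1 of 12 months, beside 10.95 to 13.01 CPM in the others (ratio 0.772). Eda2r was 1.30 CPM in 304Q/304Q replicate 5 of 2 months, beside 0.151 to 0.397 CPM (ratio 0.786).

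For 2 genes of the pathway lists the interaction of genotype and age passed in edgeR, and neither held in all other fits. The interaction log2 fold change was -1.14 for Trp73 (adjusted p = 0.0266) and -0.54 for Gls2 (adjusted p = 0.0461), each with WT/WT mice of 12 months highest. The Trp73 interaction was called in 7 of 8 alternatives and 13 of 20 fits with a library left out, and that of Gls2 in 3 of 9 and 6 of 20.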

How the results depend on the processing

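Under the 10 alternatives and 20 left-out libraries, Cdkn1a was lower in 304Q/304Q mice of 12 months and called in every fit, with log2 fold changes from -0.95 to -0.80. The number of members called moved as follows, and the cause was not tested. Between the genotypes at 12 months it was 1, and 2 without the 6 libraries rich in choroid plexus transcripts, and it ran from 1 to 2 over the left-out libraries. With age in WT/WT mice it was 0, 1 without those 6 libraries, and 0 to 2 over the left-out libraries. With age in 304Q/304Q mice it was 1, 2 in DESeq2 with 3 surrogate variables (Zmat3 was added) and 0 without the 6 libraries. It was 1 with any single library left out, where the highest adjusted p of Cdkn1a was 0.0496, without 304Q/304Q replicate 2 of 2 months. The interaction count was 0, 1 in DESeq2 with 3 surrogate variables (Cdkn1a), and 0 for each left-out library, as was the count between the genotypes at 2 months in every fit. The relation of Ccng1 and Trp53inp1 turned from r = 0.733 to -0.504 after 3 surrogate variables were removed.

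With the replicate number as a block, the counts of members were 0, 1, 0, 1 and 0 for the genotype at 2 and at 12 months, age in WT/WT, age in 304Q/304Q and the interaction, as without it. Most same-numbered mice did not deviate together (r of deviations from -0.323 to 0.551 over 20 pairs, over 0.1 in 4). The highest r was that of WT/WT replicate 1 of 2 and of 12 months. Of the 20 mice, 4 matched best with their own number. The sample titles number the mice without naming pairs, and such correlations cannot settle whether the numbers pair them. The block ended the interaction call of Gls2 (adjusted p = 0.0726), and with age the calls of Usp10, Siva1 and Hrk.

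Of the listed genes at 12 months, Trp73 and Gls2 were called in every fit in which they were tested. With the 6 libraries left out, 651 genes were called between the genotypes at 12 months in place of 1523, 431 with age in 304Q/304Q mice in place of 882, 94 for the interaction and 1 between the genotypes at 2 months. The setting keeps only 2 WT/WT and 3 304Q/304Q mice of 12 months. Between these, Ppp1r13b (-0.29), Hrk (0.56) and Sesn1 (-0.21) kept most of their log2 fold change but were not called, and Usp10 (-0.11) and Bcl2l1 (-0.13) were smaller and not called. Whether choroid plexus content matters cannot be told apart from the loss of mice. Sesn1 was also lost with surrogate variables (adjusted p = 0.0881 in edgeR and 0.096 in DESeq2) and Rrm2b with them in edgeR (0.0545). Leaving out WT/WT replicate 1 of 12 months raised the calls with age in WT/WT mice from 1398 to 2542 and for the interaction from 237 to 558, and leaving out WT/WT replicate 3 of that age lowered them to 726 and 155. Between the genotypes at 2 months 6 genes were called, 22 by DESeq2, 34 and 55 with surrogate variables in edgeR and DESeq2, 10 without a count filter, 4 in fits of only these groups, and 4 to 10 over the left-out libraries. With age in WT/WT mice fits with surrogate variables in edgeR called 778 genes, and fits of only these groups 739. The interaction had 395 calls in DESeq2 and 433 with surrogate variables in it. The differences of Eda2r kept their sign with a prior count of 0.5 but grew in size. They were then 1.295 and -0.55 between the genotypes at 2 and 12 months, and 0.51 and -1.34 with age in WT/WT and 304Q/304Q mice.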
